A study of Mus musculus with 7 samples.

Results

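Pf4, Ppbp, Itga2b, Gp9, Gp1ba, Gp1bb, Gp6 and Vwf, 8 genes of megakaryocytes and platelets, were followed in RNA of mouse bone marrow cells. The sort aimed at the endothelium of sinusoids, the wide, thin-walled veins of the marrow. They were taken by gene name from the 50435 rows of the expression table, and each name matched 1 row. All recipients were irradiated wild-type mice carrying transplanted Zbtb46dtr marrow, whose cells express a receptor for diphtheria toxin under control of Zbtb46, a transcription factor of classical dendritic cells. At 8 weeks, 3 DT samples came from mice given 200 ng of diphtheria toxin (DT) in PBS and 4 PBS samples from mice given PBS alone, in each case into the peritoneum, and marrow was taken 1 day later. Cells positive for CD31 and negative for Sca1 were sorted, gating out the CD45, Ter119, Gr1 and CD11b stains. The labels call the samples biological replicates and do not say whether animals were pooled; they give no age.

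Megakaryocytes are the large marrow cells that lie against sinusoids and release platelets into the blood through the vessel wall. Platelets carry granules with chemokines and von Willebrand factor, and surface receptors that bind that factor, collagen and fibrinogen when a vessel is damaged. Platelets have no nucleus but keep messenger RNA from the megakaryocyte, so the 8 genes can be read in either. Vwf is made by endothelial cells as well.

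Levels are given in RPM, a gene's reads scaled to the read total of its library. The commonest low level within each library was read as 1 read, which implied 33200000 to 51200000 reads per library, and 3 reads, taken as the floor, equalled 0.0585 to 0.0904 RPM. Genes listed as markers of endothelium, though not all confined to it, were low in all libraries. A list of 14 such genes summed to 11.4 to 19.3 RPM in DT and 4.44 to 12.6 RPM in PBS, and 10 of them averaged under 1 RPM, so the labelled cell type is weakly marked. Of its 4 tested genes Flt1, a growth factor receptor of endothelium chosen after its values were seen, rose, to 2.08 ± 0.688 RPM in DT (SD, n = 3), against 0.206 ± 0.283 RPM in PBS (SD, n = 4). Its mean over all libraries, 1.009 RPM, was barely above the 1 RPM needed for testing. The most abundant, Esam, a junction protein of endothelium that platelets also carry, and Cdh5, the endothelial cadherin, averaged 2.81 ± 1.96 and 2.10 ± 1.18 RPM in DT (SD, n = 3), and 0.813 ± 1.16 and 0.811 ± 1.27 RPM in PBS (SD, n = 4), and neither passed the test. The fourth, Plvap, a protein of endothelial fenestrae also chosen after its values were seen, ran the other way without passing, at 0.148 ± 0.236 RPM in DT (SD, n = 3), against 1.71 ± 1.38 RPM in PBS (SD, n = 4; limma, adjusted p = 0.0963). In bulk RNA of this kind, fewer cells of a type and less RNA per cell cannot be told apart.

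The upstream sequences of 4 of the genes are shown because they pair genes linked by position or by function. Pf4 and Ppbp are neighbours on chromosome 5 with 2371 bases between them, and Gp9 and Gp1ba encode subunits of the same receptor. Each line gives the 250 bases before the RefSeq start on the gene's own strand, 5′ to 3′ (RefSeq, GRCm38.p6), with matches in capitals to GATA motifs (A or T, then GATA, then A or G) or ETS motifs (A or C, then GGAAG) on either strand. GATA and ETS proteins are the transcription factor families best known from megakaryocyte genes. The windows are chr5:90772185-90772434 for Pf4, chr5:90768268-90768517 for Ppbp, chr6:87777820-87778069 for Gp9 and chr11:70638872-70639121 for Gp1ba, all on the plus strand.
Pf4: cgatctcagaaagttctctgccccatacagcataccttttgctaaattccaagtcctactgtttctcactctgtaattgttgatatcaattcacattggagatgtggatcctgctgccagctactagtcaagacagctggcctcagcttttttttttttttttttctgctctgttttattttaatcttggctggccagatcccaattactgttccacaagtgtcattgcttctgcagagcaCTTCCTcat
Ppbp: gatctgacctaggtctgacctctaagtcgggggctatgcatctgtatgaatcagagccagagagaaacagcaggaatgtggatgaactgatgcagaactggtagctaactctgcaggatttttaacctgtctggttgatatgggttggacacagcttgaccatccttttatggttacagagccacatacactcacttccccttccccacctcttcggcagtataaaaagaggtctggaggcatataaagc
Gp9: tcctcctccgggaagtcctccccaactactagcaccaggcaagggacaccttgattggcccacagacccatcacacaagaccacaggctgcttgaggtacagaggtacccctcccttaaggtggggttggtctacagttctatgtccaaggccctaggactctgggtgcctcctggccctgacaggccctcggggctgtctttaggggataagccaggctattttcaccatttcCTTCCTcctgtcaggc
Gp1ba: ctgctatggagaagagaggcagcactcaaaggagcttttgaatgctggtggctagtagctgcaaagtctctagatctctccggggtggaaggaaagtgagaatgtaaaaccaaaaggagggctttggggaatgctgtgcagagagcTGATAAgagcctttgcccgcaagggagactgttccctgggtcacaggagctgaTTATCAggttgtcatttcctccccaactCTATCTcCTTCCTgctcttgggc

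Windows were found for 7 of the 8 genes, all but Vwf. GATA motifs stood in 3 of the 7, those of Gp1ba, Gp1bb and Gp6, where 26.5% of 32851 windows of the same length hold one. ETS motifs stood in 5 of the 7, those of Gp1ba, Gp1bb, Gp9, Itga2b and Pf4, against 39.2% of all windows. No 2 of the printed matches overlap. In Gp1ba 3 GATA matches began 104, 51 and 23 bases before the start. The ETS matches of Gp1ba and Gp9 each began 16 bases before it and that of Pf4 9 bases before it. A match is a description of the letters and no evidence of binding.

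DT was compared with PBS to see whether the platelet genes differ in sorted marrow cells 1 day after toxin given to ablate Zbtb46-expressing cells. Of the 8 genes 7 averaged at least 1 RPM and were tested, and Gp1bb did not reach that mean. None of the 7 passed the test (limma on log2(RPM + 1), adjusted p under 0.05 over 14100 genes), where 32.0% of all tested genes passed. At an unadjusted p under 0.05 the count was 1 of 7. The share of all tested genes at that threshold was not counted, but it cannot be below the 32.0% that passed after adjustment. Limma voom on estimated reads called 0 of the 8 genes, where it called 1836 genes higher and 2310 lower in DT. In all 8 genes the DT and PBS libraries overlapped, whereas 40.9% of tested genes had groups that did not. The median log2 change, DT minus PBS, was -0.53 over the 7 genes and -0.23 over all tested genes. The former is the value of Gp6, which held only 1 or 2 reads in some libraries.

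Pf4, platelet factor 4, is an alpha granule chemokine that binds heparin (chromosome 5, 90772435 to 90773383, GENCODE vM21 on mm10). It was at 27.3, 72.7 and 23.1 RPM in DT replicates 1 to 3, against 30.5, 81.6, 25.1 and 45.8 RPM in PBS replicates 1 to 4. Replicate 2 stood highest in each group, DT replicate 1 fell between PBS replicates 3 and 1, and DT replicate 3 lay just below all PBS libraries. Means were 41.1 ± 27.5 RPM in DT (SD, n = 3) and 45.8 ± 25.5 RPM in PBS (SD, n = 4), a log2 change of -0.19 with a 95% interval of -1.21 to 0.82 (limma, adjusted p = 0.773). That difference had the other sign under median-ratio scaling, at 0.032, without PBS replicate 2, at 0.13, and without DT replicate 3, at 0.11, and it was -0.69 without DT replicate 2.

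Ppbp, pro-platelet basic protein, is the precursor of granule chemokines that attract neutrophils (chromosome 5, 90768518 to 90770063). It was at 12.2, 39.5 and 9.09 RPM in DT replicates 1 to 3, against 26.5, 87.4, 14.9 and 36.4 RPM in PBS replicates 1 to 4. DT replicates 1 and 3 lay below all PBS libraries, while DT replicate 2 lay above 3 of the 4. Means were 20.3 ± 16.7 RPM in DT (SD, n = 3) and 41.3 ± 31.9 RPM in PBS (SD, n = 4), and the log2 change was -0.98 with an interval of -2.30 to 0.34 (limma, adjusted p = 0.228). That change was -0.53 without PBS replicate 2. Leaving out DT replicate 3 gave -0.58, and leaving out DT replicate 2 gave -1.59.

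Itga2b, the integrin alpha subunit known as CD41, forms the fibrinogen receptor with Itgb3 and is an early marker of the lineage (chromosome 11, 102453297 to 102470122, minus strand). It was at 18.5, 23.1 and 11.2 RPM in DT replicates 1 to 3, against 5.96, 21.4, 8.91 and 14.6 RPM in PBS replicates 1 to 4. Its DT mean was the higher, at 17.6 ± 5.98 RPM (SD, n = 3), against 12.7 ± 6.82 RPM in PBS (SD, n = 4). The log2 change was 0.52 with an interval of -0.39 to 1.43 (limma, adjusted p = 0.353). Leaving out 1 library gave 0.24 without PBS replicate 1, 0.31 without DT replicate 2, and 0.80 without PBS replicate 2 or without DT replicate 3. Itgb3, the beta subunit, had a log2 change of 0.53 and did not pass either (limma, adjusted p = 0.225); it was at 16.8 ± 5.65 RPM in DT (SD, n = 3) and 11.5 ± 3.92 RPM in PBS (SD, n = 4), and it was chosen after its values were seen.

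**Figure D1:**
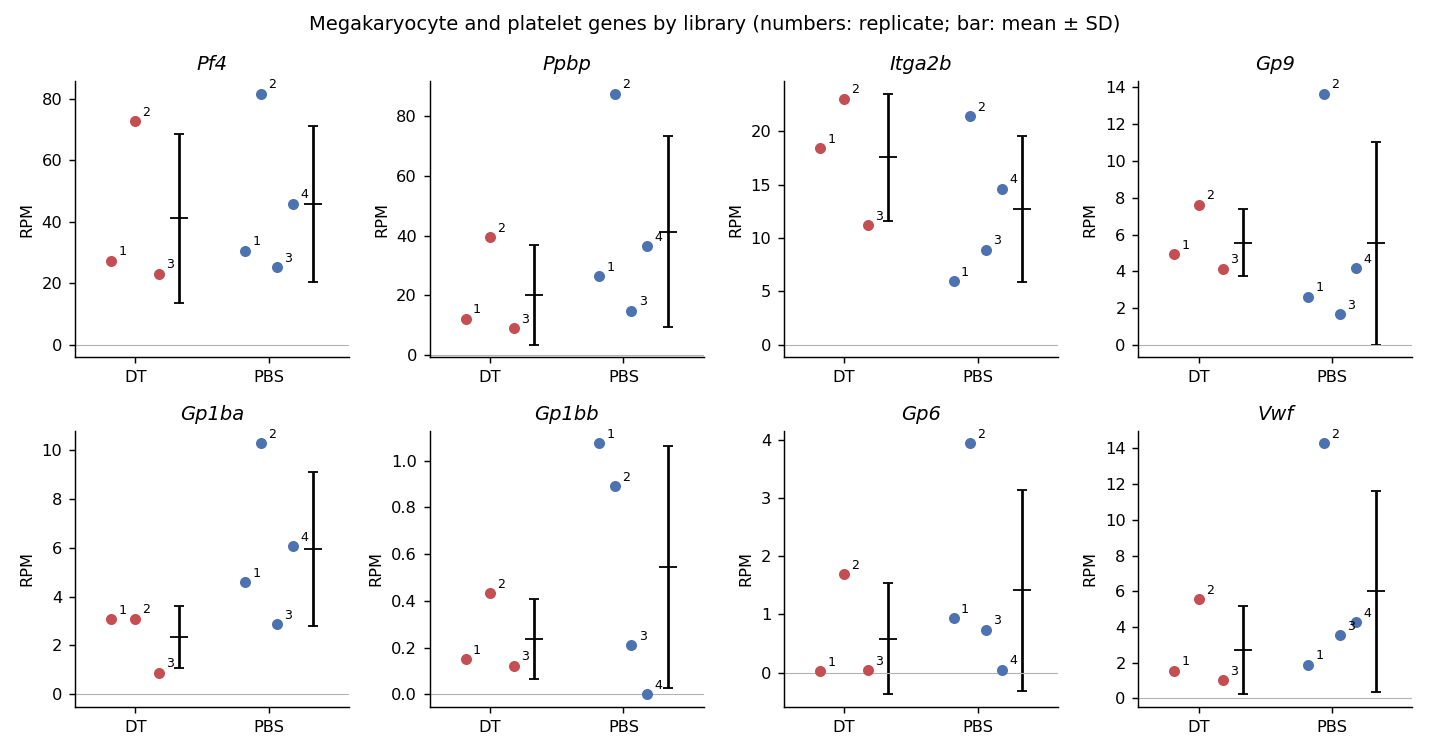
Level of each of the 8 genes in RPM (y axis, a separate linear scale per panel) in the 3 DT and 4 PBS libraries; each point is 1 library marked with its replicate number, and the bar is the mean ± SD. Replicate 2 is the highest DT library in all 8 panels and the highest PBS library in 7, and the groups overlap in each.

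Gp1ba, Gp1bb and Gp9, with Gp5, encode the complex on platelets that catches von Willebrand factor under fast flow. Gp1ba, the chain that binds the factor, had the smallest p of the 8 genes (chromosome 11, 70639122 to 70642036). It was at 3.07, 3.09 and 0.878 RPM in DT replicates 1 to 3, against 4.58, 10.3, 2.87 and 6.05 RPM in PBS replicates 1 to 4. DT replicates 1 and 2 lay just above PBS replicate 3 and below the other PBS libraries. Means were 2.35 ± 1.27 RPM in DT (SD, n = 3) and 5.94 ± 3.17 RPM in PBS (SD, n = 4), with a log2 change of -1.03 and an interval, not adjusted for the number of genes, of -1.99 to -0.07 (limma, adjusted p = 0.0936). Without DT replicate 3 the change was -0.66.

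Gp9, a small subunit that steadies the complex at the surface, had nearly equal group means (chromosome 6, 87778072 to 87779768). It was at 4.92, 7.61 and 4.14 RPM in DT replicates 1 to 3, against 2.62, 13.6, 1.69 and 4.16 RPM in PBS replicates 1 to 4. The 3 DT values lay within the wider PBS range. Means were 5.56 ± 1.82 RPM in DT (SD, n = 3) and 5.53 ± 5.51 RPM in PBS (SD, n = 4), and the log2 change was 0.30 with an interval of -0.88 to 1.48 (limma, adjusted p = 0.697), or -0.021 without PBS replicate 3 and 0.79 without PBS replicate 2.

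Gp1bb, the chain linked to Gp1ba by a disulfide bond, was the weakest (chromosome 16, 18620317 to 18622403, minus strand). It was at 0.15, 0.433 and 0.123 RPM in DT replicates 1 to 3, against 1.07, 0.891, 0.212 and 0 RPM in PBS replicates 1 to 4. PBS replicate 4 had no read, which allows up to 0.0776 RPM, while PBS replicates 1 and 2 were above all DT libraries. In the annotation its exons overlap those of a septin gene and of Gm49601 on the same strand, and its estimated reads were whole within 0.05 in 2 of 7 libraries, 1 of them at 0, so its level is uncertain. Fitted without a filter on low genes, its log2 change was -0.27 (limma, adjusted p = 0.603), with -0.10 without PBS replicate 1, -0.15 without PBS replicate 2 and -0.45 without PBS replicate 4. Gp5, chosen after its values were seen, averaged 0.433 ± 0.378 RPM in DT (SD, n = 3) and 2.22 ± 2.42 RPM in PBS (SD, n = 4) and did not pass (limma, adjusted p = 0.213).

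Gp6, the collagen receptor of platelets, had few reads in most libraries (chromosome 7, 4363965 to 4397744, minus strand). It was at 0.0247, 1.69 and 0.0390 RPM in DT replicates 1 to 3, against 0.934, 3.94, 0.738 and 0.0517 RPM in PBS replicates 1 to 4. DT replicates 1 and 3 and PBS replicate 4 held 1 or 2 reads each, whereas DT replicate 2 held 71 and PBS replicate 2 held 154. The log2 change was -0.53 with an interval of -1.74 to 0.69 (limma, adjusted p = 0.489). That size rests on the scale and on single libraries: it was -1.44 with a pseudocount of 0.1, -2.22 with voom and -0.21 with sample weights. It was -0.29 without DT replicate 1, or -0.30 where DT replicate 3 was left out instead, and -0.84 without PBS replicate 4. With either library numbered 2 left out, Gp6 averaged under 1 RPM and was not tested.

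Vwf, von Willebrand factor, tethers platelets to the damaged vessel (chromosome 6, 125546774 to 125686679). It was at 1.56, 5.56 and 1.01 RPM in DT replicates 1 to 3, against 1.90, 14.3, 3.53 and 4.27 RPM in PBS replicates 1 to 4. DT replicates 1 and 3 lay below all PBS libraries and DT replicate 2 above 3 of them, the same arrangement as for Ppbp. Means were 2.71 ± 2.48 RPM in DT (SD, n = 3) and 5.996 ± 5.61 RPM in PBS (SD, n = 4), with a log2 change of -0.82 and an interval of -2.13 to 0.49 (limma, adjusted p = 0.310). The change was -0.34 with PBS replicate 2 left out, -0.48 with DT replicate 3 left out and -1.33 with DT replicate 2 left out.

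Per length of the longest annotated transcript, the genes kept nearly the same order of level from library to library. Pf4 was at 39.3 to 124 RPM per kb in DT and 42.8 to 139 RPM per kb in PBS, above Ppbp in all 7 libraries. Ppbp was at 8.40 to 36.4 RPM per kb in DT and 13.8 to 80.7 RPM per kb in PBS, above Gp9 in all 7. Gp9 was above Itga2b in 6 libraries, Itga2b above Gp1ba in 7, Gp1ba above Vwf in 7 and Vwf above Gp1bb in 6. Gp1bb was above Gp6 in 3 of 7, so the last 2 had no set order. Between each pair of neighbours the ranges over the 7 libraries overlapped, so the order is one within libraries.

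The genes spread widely among libraries of 1 group, and largely in the same libraries. Their sum was 67.8, 154 and 49.6 RPM in DT replicates 1 to 3, against 74.1, 233, 58.0 and 111 RPM in PBS replicates 1 to 4. DT replicate 2 was the highest DT library for 8 of 8 genes, where it is so for 34.4% of all tested genes. PBS replicate 2 was the highest PBS library for 7 of 8, where it is so for 35.4% of tested genes, and 7 of 8 had both, against 13.3%. Gp1bb was the exception, with PBS replicate 1 highest. DT replicate 3 was the lowest DT library for 7 of 8, Gp6 being the exception, and PBS replicate 3 the lowest PBS library for 4 of 8. The shares of all tested genes with these lowest libraries were not counted. Without the 2 libraries numbered 2, the sum was 49.6 to 67.8 RPM in DT and 58.0 to 111 RPM in PBS. Without them 0 of the genes still tested passed, and the 2 numbers are labels that the study does not say mark a shared litter or day.

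**Figure D2:**
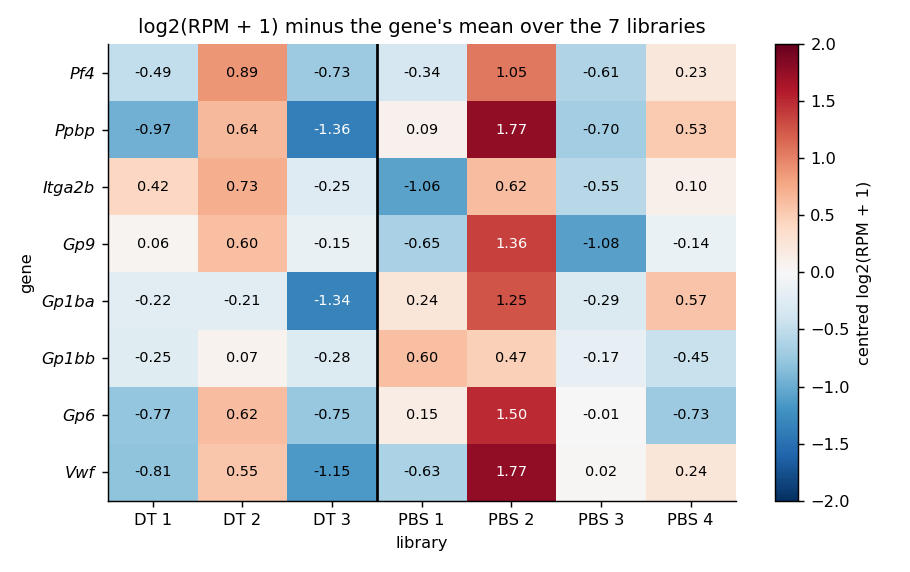
Each gene's log2(RPM + 1) minus its mean over the 7 libraries (colour and printed value), with DT libraries left of the line and PBS libraries right of it. DT 2 and PBS 2 are the warm columns: PBS 2 is between 0.47 and 1.77 above the gene's mean in all 8 rows, and DT 2 is above it in all rows except Gp1ba.

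The standard deviation of log2(RPM + 1) had a median of 0.80 in DT and 0.93 in PBS over the 7 tested genes, against 0.21 in DT and 0.36 in PBS over all tested genes. Low genes spread more, so the genes were also set beside genes of like level. In each group all 7 were above the median of their level band. Pf4 and Ppbp had 0.87 and 1.06 in DT and 0.73 and 1.03 in PBS, where 3302 genes averaging 20 to 50 RPM had medians of 0.19 in DT and 0.32 in PBS. Gp9 was among the steadier in DT, at 0.38, and among the most variable in PBS, at 1.07, where 3979 genes averaging 5 to 20 RPM had medians of 0.29 in DT and 0.42 in PBS. Counting error was far smaller for the stronger genes. The coefficient of variation of Pf4 was 67.0% in DT and 55.6% in PBS, whereas its lowest count, 954 estimated reads, gives a counting error of 3.24%. Libraries were amplified from 1 ng of RNA, so a read is not a separate molecule and such errors cover counting only.

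Levels of other cell types' genes differed among the same libraries. Of 12 erythroid genes 8 fell in DT and 2 rose. Their sum was at 1256, 1680 and 1448 RPM in DT replicates 1 to 3. It was at 878, 10808, 7099 and 6670 RPM in PBS replicates 1 to 4, so that replicate 2 was again highest in each group. Car1 and Car2, carbonic anhydrases of red cell precursors and the most abundant of that list, were at 75.9 ± 29.0 and 180 ± 48.2 RPM in DT (SD, n = 3), against 2160 ± 1420 and 3159 ± 2088 RPM in PBS (SD, n = 4). The 2 that rose, chosen after their values were seen, were Alas2, which starts haem synthesis in red cells, and Hbb-bs, a beta globin. They were at 35.0 ± 4.10 and 991 ± 148 RPM in DT (SD, n = 3), against 7.30 ± 3.90 and 320 ± 182 RPM in PBS (SD, n = 4; limma, adjusted p = 0.00261 and 0.00803). Summed endothelial genes were at 12.6 RPM in PBS replicate 2 and at 4.44 to 4.82 RPM in the other 3 PBS libraries. In DT replicates 1 to 3 they were at 11.4, 14.5 and 19.3 RPM, an order that the platelet genes did not share. Summed neutrophil genes (12) were lowest in PBS replicate 2, at 1930 RPM, and at 2846 to 4290 RPM in the other PBS libraries. Among DT libraries they were also lowest in replicate 2, at 55607 RPM, with 60388 and 57012 RPM in replicates 1 and 3. The part of these cell types in the spread of the platelet genes was not tested.

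The proportions of the genes to each other were read within each library. Over the 6 genes above the floor in every library there are 15 ratios, and in 6 of them DT and PBS libraries did not overlap. That is near the background, since 36.3% of the ratios between any 2 of 13261 tested genes above the floor everywhere do not overlap. The ratio of Pf4 to Ppbp was 2.23, 1.84 and 2.54 in DT replicates 1 to 3, against 1.15, 0.934, 1.69 and 1.26 in PBS replicates 1 to 4. The ratio of Gp9 to Gp1ba was 1.605, 2.46 and 4.71 in DT replicates 1 to 3, against 0.572, 1.33, 0.587 and 0.688 in PBS replicates 1 to 4. Relative to Gp9, Gp1ba thus stood lower in every DT library. Pf4 over Gp1ba, Itga2b over Gp1ba, Itga2b over Vwf and Gp9 over Ppbp also stood higher in every DT library. The 6 were picked from the 15 by their lack of overlap and are given without a test.

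**Figure D3:**
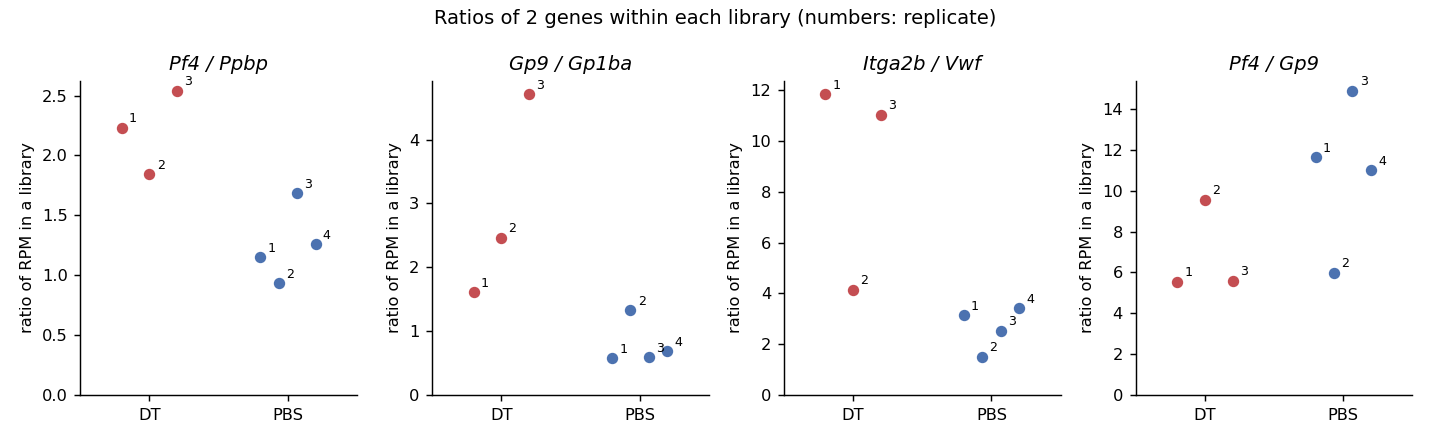
Ratio of the RPM of 2 genes within a library (y axis, linear from 0) for 4 pairs, in 3 DT and 4 PBS libraries marked by replicate number. Pf4 over Ppbp, Gp9 over Gp1ba and Itga2b over Vwf are higher in every DT library than in any PBS library, whereas Pf4 over Gp9 overlaps between the groups. The pairs without overlap were picked from the 6 such ratios among 15, near the 36.3% found for ratios between any 2 tested genes above the floor everywhere.

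Likeness of pattern was measured as the root mean square difference between 2 genes' log2(RPM + 1) values over the 7 libraries, each centred on its own mean. Among the platelet genes Ppbp and Vwf were the closest pair, at 0.41, followed by Itga2b and Gp9 at 0.42 and Pf4 and Gp9 at 0.43. Ppbp and Itga2b were the farthest apart, at 0.93. Among 9239 named genes averaging at least 5 RPM, the gene closest to Gp9 was Tubb1, the beta tubulin of the platelet's marginal band, at 0.24, where the median gene was at 0.85. Tubb1 was at 4.77, 8.49 and 2.61 RPM in DT replicates 1 to 3, against 2.86, 16.0, 2.11 and 3.67 RPM in PBS replicates 1 to 4. The next closest to Gp9 were Ctla2a at 0.28 and Klf11 at 0.38. Closest to Pf4 were Jade2, Kcnk5 and Mfsd3 at 0.23 to 0.30, and to Itga2b Cmpk2, Thap4 and Zkscan5 at 0.23 to 0.25. Frat2 and Akap7 were near Ppbp, at 0.40 and 0.44. Closest to Gp1ba were Epb41l4b, Hdac2 and Uap1 at 0.19 to 0.25, to Vwf Timm29, Ell2 and Xk at 0.29 to 0.36, and to Gp6 Slc44a1, Rfx2 and Tbc1d19 at 0.38 to 0.41.

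Other genes known from platelets were read by role in 5 lists of 66 genes, of which 61 were tested. Of these, 22 rose and 6 fell in DT (limma, adjusted p under 0.05), whereas 13.4% of all tested genes rose and 18.6% fell. Among those that rose are genes also known from leukocytes. Summed neutrophil genes were at 55607 to 60388 RPM in DT and 1930 to 4290 RPM in PBS, and summed monocyte and macrophage genes (8) at 6635 to 8216 RPM in DT and 377 to 749 RPM in PBS; their part in the rises was not tested. Ngp and S100a8, the most abundant neutrophil genes, averaged 18499 ± 978 and 9818 ± 773 RPM in DT (SD, n = 3), against 777 ± 222 and 537 ± 126 RPM in PBS (SD, n = 4).

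Of 14 other surface receptors 2 rose and 12 did not pass, with a median log2 change of 0.50. Cd9, a tetraspanin abundant on platelets, rose to 294 ± 7.14 RPM in DT (SD, n = 3), against 34.7 ± 6.72 RPM in PBS (SD, n = 4; limma, adjusted p = 2.49e-06). P2rx1, an ATP-gated channel of platelets and neutrophils, rose to 14.4 ± 0.684 RPM in DT, against 3.38 ± 1.06 RPM in PBS. Treml1, a granule membrane receptor chosen after its values were seen, also had its highest values in the libraries numbered 2. It was at 2.33, 3.92 and 0.410 RPM in DT replicates 1 to 3, against 1.63, 10.6, 1.27 and 4.42 RPM in PBS replicates 1 to 4. It did not pass (limma, adjusted p = 0.461). PBS replicate 2 was the highest PBS library for 11 of the 14 receptors and DT replicate 2 the highest DT library for 9. In the other lists these counts were 5 and 6 of 12 granule genes and 4 and 5 of 10 cytoskeleton genes. They were 7 and 7 of 14 signalling genes and 7 and 6 of 11 transcription factors. Over all 61 they were 34 and 33, where the shares of all tested genes were 35.4% and 34.4%.

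Of 12 granule and secretion genes 6 rose and 6 did not pass, with a median log2 change of 0.74. F13a1, the clotting factor XIII A chain of platelets and monocytes, rose to 509 ± 95.02 RPM in DT (SD, n = 3), against 68.1 ± 38.4 RPM in PBS (SD, n = 4). Nbeal2, needed to form alpha granules, rose to 25.2 ± 8.81 RPM in DT, against 4.91 ± 0.809 RPM in PBS. F5, clotting factor V, and Serpine2, a protease inhibitor, rose by 1.10 and 1.65 on the log2 scale. Of 10 cytoskeleton genes 6 rose and 4 did not pass, with a median log2 change of 0.70. Flna, which links actin to the Gp1ba tail, rose to 338 ± 4.79 RPM in DT, against 85.6 ± 7.70 RPM in PBS. Bin2, Zyx and Vcl, proteins of membrane curvature and of adhesion sites, rose by 2.27, 2.48 and 2.21 on the log2 scale. Tubb1, whose expression is largely restricted to the lineage, did not pass (limma, adjusted p = 0.939).

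Of 14 signalling genes 7 rose, 1 fell and 6 did not pass, with a median log2 change of 0.59. Ptgs1, the cyclooxygenase that starts thromboxane synthesis, rose to 68.9 ± 3.34 RPM in DT (SD, n = 3), against 5.15 ± 2.39 RPM in PBS (SD, n = 4). Tbxas1, which completes that synthesis, rose to 21.6 ± 11.1 RPM in DT, against 3.79 ± 0.981 RPM in PBS. Lcp2, the adaptor SLP-76, and Plek, pleckstrin, rose by 2.55 and 2.39 on the log2 scale. Gng11, a G protein subunit chosen after its values were seen, was at 1.51, 4.28 and 3.20 RPM in DT replicates 1 to 3, against 0.723, 11.2, 0.448 and 1.63 RPM in PBS replicates 1 to 4, and did not pass (limma, adjusted p = 0.719). Syk, the kinase downstream of Gp6, was the 1 that fell, to 220 ± 23.2 RPM in DT, against 333 ± 78.3 RPM in PBS; its call was lost under 9 of 17 alternatives, both scalings among them.

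Of 11 transcription factors 5 fell, 1 rose and 5 did not pass, with a median log2 change of -0.07. Gfi1b, a repressor of erythroid and megakaryocyte cells, fell to 8.60 ± 2.26 RPM in DT (SD, n = 3), against 136 ± 93.2 RPM in PBS (SD, n = 4; limma, adjusted p = 0.00169). Gata1, the GATA factor of both lineages, fell to 8.14, 10.6 and 8.14 RPM in DT replicates 1 to 3, against 14.8, 183, 129 and 103 RPM in PBS replicates 1 to 4, and its groups did not overlap. PBS replicate 1 was the lowest PBS library for Gata1, as it was for the summed erythroid genes. The call for Gata1 (limma, adjusted p = 0.00950) was lost without a filter (0.0660), with voom (0.0525) and without the 2 libraries numbered 2 (0.0528). Zfpm1, the partner of Gata1, fell to 0.934 ± 0.332 RPM in DT, against 5.31 ± 1.74 RPM in PBS. Tal1 and Runx1, chosen after their values were seen, completed the 5 and lost their calls under 8 and 5 of 17 alternatives. Nfe2, which drives late platelet formation and is also expressed in neutrophils, rose to 116 ± 1.72 RPM in DT, against 31.8 ± 15.4 RPM in PBS. The part of erythroid cells in the falls was not tested.

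**Figure D4:**
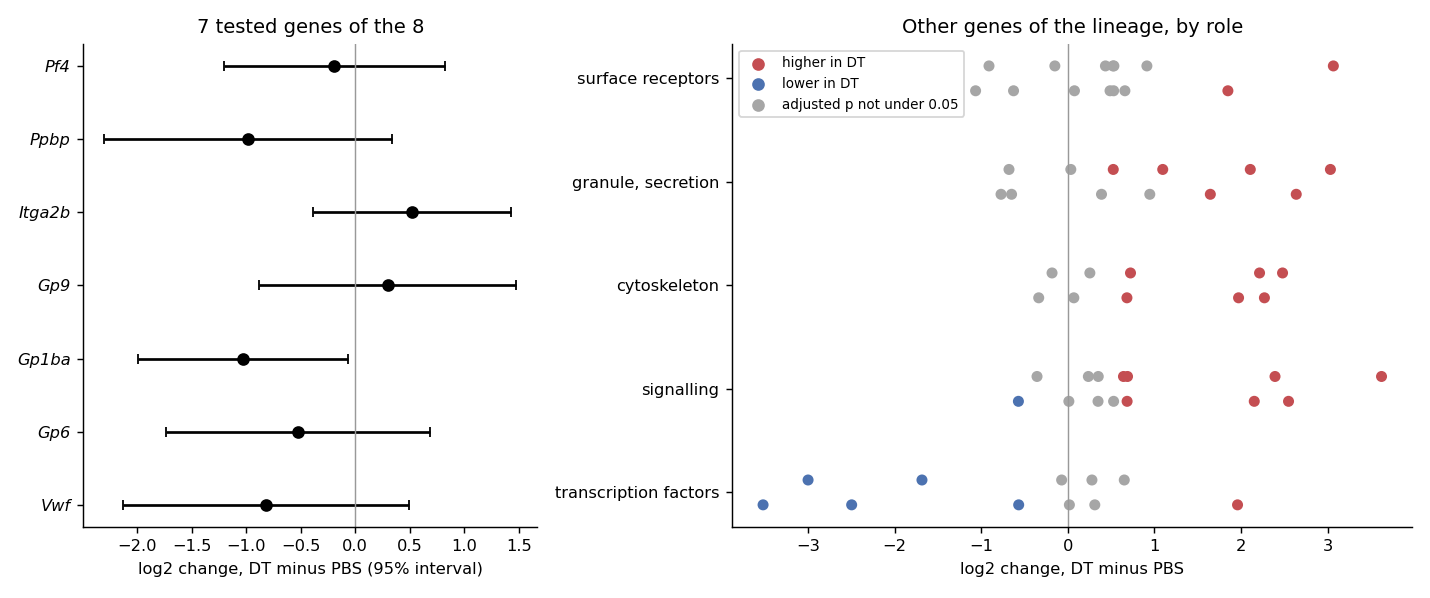
Left, log2 change, DT minus PBS, in log2(RPM + 1) with its 95% interval for the 7 tested genes of the 8; right, the log2 change of each of the 61 tested genes of 5 role lists, 1 point per gene, coloured by the limma call at an adjusted p under 0.05. On the left no gene was called although the interval of Gp1ba ends at -0.07; on the right, calls are rises in the first 4 lists except 1 signalling gene, and 5 of 6 calls among transcription factors are falls.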

How the data were processed

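The authors made and deposited 1 table with 1 column per sample, called FPKM, whose values behave as RPM, scaled to a library's reads: the commonest low level in a library, shared by 1029 to 1206 genes, is the same for short and long transcripts. The submitters' processing notes name STAR 2.5.3a, Partek and mm10; which annotation and counting rules were used, and whether strand was, is not stated. Per the labels' protocols, cDNA from 1 ng of RNA was amplified for 14 cycles and read as 50 bases. An offset of 0.0001 was subtracted. Genes averaging at least 1 RPM (14100) were tested with limma 3.58.1 in R 4.3.3 on log2(RPM + 1) with an intensity trend, DT minus PBS, two-sided, adjusted by Benjamini-Hochberg; this scale understates changes of low genes. The method was checked on simulated data in which all genes were given the same spread beyond counting. That check therefore does not show how well genes that vary as widely as the platelet genes are called. Median-ratio scaling moved the median log2 change of all genes from -0.23 to -0.02 and the share of rises among calls from 41.9% to 64.2%.

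The 8 genes and the lists were chosen with earlier results of these data known. Named are the 8 genes, up to 4 called genes per role list with the smallest p, the 2 most abundant genes of the endothelial, erythroid and neutrophil lists, and the 3 genes most like each tested gene; others are marked where they appear, and 1 of the like genes is not reported here. Summed lists not used above ranged, in DT and then PBS, from 3027 to 3396 and 4776 to 7061 RPM for B-lineage, 235 to 270 and 443 to 539 RPM for progenitor, 644 to 1515 and 8.43 to 188 RPM for mast cell and basophil, and 311 to 333 and 21.9 to 53.7 RPM for T and natural killer cell genes. 1 list gene had no unambiguous row. Samples are biological replicates per the labels, with no statement of separate animals, so p-values measure the spread between these samples. Samples sharing a replicate number did not deviate together over all tested genes (correlations of 0.0419, 0.0485 and 0.0103), so they were not treated as pairs. Alternatives covered the pseudocount, filter, scaling, trend, sample weights, a replicate block, voom and leaving out each library; leaving out both libraries numbered 2 was added after seeing the data.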

Additional observations from a re-analysis of the deposited data

Results flagged for a closer look

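Among 55 values examined in the 4 PBS libraries, 4 had 1 library far from the other 3. Chance flags about 1 in 20 where values are independent and normally distributed, which was not checked for these RPM values. Some of the genes, Tubb1 and Gng11 among them, were chosen after their values were seen, so that rate does not apply to them. All 4 flagged values stood high in PBS replicate 2, the library in which 7 of the 8 platelet genes were highest. The gap to the next library was 0.954 of the whole range for the summed endothelial genes, 0.893 for Zfpm1, 0.887 for Tubb1 and 0.89 for Gng11. Tubb1 was at 16.0 RPM in that library and at 2.11 to 3.67 RPM in the other PBS libraries. Groups of 3, as in DT, were not examined in this way.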

How the results depend on the processing

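No gene of the 8 passed under 16 of 17 alternatives. A gene under the filter of a setting was not tested there and counts as not passing. Where a mean of at least 5 RPM was required, Gp1ba, Gp1bb, Gp6 and Vwf were not tested. With the replicate number as a block, which leaves PBS replicate 4 out of the contrast, 1 passed, Ppbp (log2 change -0.95, adjusted p = 0.0263), and 1574 genes fell overall; the correlations of same-numbered samples do not show that the numbers pair them, and in 1 of the 3 pairs another number correlated better. Among all genes 2622 fell as reported, against 1688 without a filter, 1321 under median-ratio scaling, 1411 without both libraries numbered 2, and 1208 to 3628 leaving out 1 library, with 1500, 1609 and 1208 without DT replicates 1, 2 and 3. Of the platelet lists 6 genes fell, and 3 to 7 leaving out 1 library, with 3 without DT replicate 1 or DT replicate 3. The log2 change turned sign for Pf4 with median-ratio scaling (0.032) and for Tubb1 with the replicate block (-0.014). Leaving out 1 library, the log2 change of Pf4 ranged from -0.69 (without DT replicate 2) to 0.13 (without PBS replicate 2), with 0.11 without DT replicate 3. That of Gp9 ranged from -0.021 (without PBS replicate 3) to 0.79 (without PBS replicate 2), and that of Tubb1 from -0.28 (without DT replicate 2) to 0.61 (without PBS replicate 2), below 0 also without PBS replicate 1, 3 or 4. None of these 3 genes was called under any of the settings. Over 41 named genes, 636 of 675 values kept direction and side of the threshold, 25 lost and 5 gained a call, and 9 turned. The cause of these changes was not tested. With 3 against 4 samples and this spread, intervals of the 8 genes are wide, and Gp6 and Gp1bb rest on few reads.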
